A study of Danio rerio with 24 samples.

Results

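Expression of 8 genes for the movement of water, bicarbonate, ammonium, chloride and potassium was followed in retinal pigment epithelium (RPE) of zebrafish larvae during regeneration. The genes were aqp1a.1, slc4a4a, slc4a4b, rhbg, best1, kcnj13, slc12a2 and clic2. They were found by name, and all 8 were present once among the 25281 genes of the deposited tables. Larvae carried the rpe65a:nfsB-eGFP transgene, in which the rpe65a promoter drives a fusion of bacterial nitroreductase and eGFP in the RPE, and came from crosses to the AB strain. Nitroreductase converts metronidazole (MTZ, 10 mM for 24 h from 5 dpf) into a toxic product. In MTZ+ larvae this ablates about the central 2/3 of the RPE, as the paper states. The RPE was intact in MTZ- larvae, which received no MTZ. Ablated RPE below means the eGFP+ cells of MTZ+ larvae, which can include spared peripheral RPE. All larvae had been kept in PTU, which blocks pigmentation, until 5 dpf. From 4 dpf both kinds of larvae were kept in 2 µM rapamycin, an inhibitor of mTOR, or in its vehicle DMSO. The eGFP+ cells were sorted at 2 days post-injury (2dpi, 7 dpf) and 4 days post-injury (4dpi, 9 dpf). This gave 8 groups of 3 libraries, 24 in all. Up to 1000 cells went into a library, from some 80 eyes pooled over 40 larvae, so RPE cells that survived MTZ and newly formed ones cannot be told apart. Effects of ablation and of a different share of central and peripheral RPE cells cannot be told apart either.

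The 8 genes were chosen with values of these libraries known. aqp1a.1, slc4a4a, rhbg and clic2 were selected on their lower level with rapamycin in MTZ+ larvae. That comparison is therefore described and not tested below. The comparison of MTZ+ DMSO with MTZ- DMSO uses the same 3 MTZ+ DMSO libraries of each time point, so calls of these 4 genes in it are not independent of their choice. The same holds for MTZ+ rapamycin against MTZ- rapamycin, which uses the 3 MTZ+ rapamycin libraries. Rapamycin against DMSO in MTZ- larvae shares no library with the comparison that chose them. In every group a lower level of a transcript can mean fewer cells that make it or less RNA per cell, and these cannot be told apart in pooled sorted cells.

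The RPE moves fluid and ions between the photoreceptors and the blood, and this keeps the space around the outer segments thin and its pH and potassium stable. Water follows salt through aquaporins. Chloride enters across the apical membrane by a sodium, potassium and chloride cotransporter and leaves across the basal membrane by channels, while sodium bicarbonate cotransporters and carbonic anhydrases carry away acid and carbon dioxide from the retina. In the retina itself, Müller glia perform related tasks with their own aquaporin, bicarbonate cotransporter, carbonic anhydrase and potassium channels.

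Total counts per library ran from 20607731 to 37189527, and 3 counts corresponded to 0.0742 to 0.135 CPM (counts scaled to library size, with TMM factors over all 24 libraries). The labelled cell type was checked against 8 RPE markers. Their summed level ran from 58231 to 118623 CPM in MTZ- libraries and from 16029 to 79951 CPM in MTZ+ libraries, and none of the 8 was at 0 in any group. Markers of ionocytes, skin cells rich in Rh glycoproteins and bicarbonate transporters, summed to at most 1.52 CPM in any library. Endothelial markers summed to at most 13.0 CPM. Other lists reached higher sums in single libraries. These were 14359 CPM for photoreceptors (MTZ- rapamycin 2dpi), 12527 CPM for Müller glia (MTZ- DMSO 4dpi), 3632 CPM for neural crest pigment cells (MTZ+ rapamycin 2dpi) and 1293 CPM for epidermis (MTZ- DMSO 4dpi). In MTZ- DMSO at 4dpi glula alone made up at least 99% of the Müller glia sum, and hepacama was at 0. In MTZ+ rapamycin at 2dpi sox10, mitfa and kita had means of 12.2, 139 and 0.289 CPM and ltk was at 0. Most of that neural crest sum was therefore the remaining listed gene, pnp4a. Other retinal neurons reached 240 CPM (MTZ- DMSO 2dpi) and periocular mesenchyme 108 CPM (MTZ+ rapamycin 2dpi). Leukocyte markers reached 117 CPM in MTZ+ rapamycin 4dpi and 94.5 CPM in MTZ+ DMSO 2dpi. Globin and heme genes of erythrocytes, cells rich in aquaporin, were at 0 in many libraries. They reached 77.9, 54.5 and 57.1 CPM in single libraries of MTZ- DMSO 2dpi, MTZ+ rapamycin 2dpi and MTZ- DMSO 4dpi, and at most 0.135 CPM in any MTZ+ DMSO library.

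With ablation in DMSO-treated larvae, slc4a4a and rhbg were higher at both time points and aqp1a.1 at 4dpi, and best1 was lower at both. A gene was called when edgeR's quasi-likelihood test gave an adjusted p (over all genes tested) under 0.05, the log2 fold change was above 1 or below -1, and 1 of the groups had a mean of at least 1 TPM (a share of transcripts, which allows for transcript length). Statements below that the libraries of compared groups did not overlap are descriptions. The share of all tested genes whose libraries separate in this way was not counted. At 2dpi, 2 of the 8 genes were called higher, where 11.3% of all tested genes were, and 1 was called lower, where 9.9% were. At 4dpi, 3 of the 8 were called higher against 14.3% of all tested genes, and 1 was called lower against 9.14%. The median log2 fold change of the 8 genes was 0.94 at 2dpi and 1.00 at 4dpi, and that of all tested genes was 0.04 and 0.27. All genes called higher were among those selected on their lower level with rapamycin in MTZ+ larvae. The counts of genes called higher and these medians are therefore not independent of that choice. slc4a4b, best1, kcnj13 and slc12a2, which were not selected in that way, had negative log2 fold changes at both time points. The plot of single libraries shows these levels for all 8 groups.

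**Figure D1:**
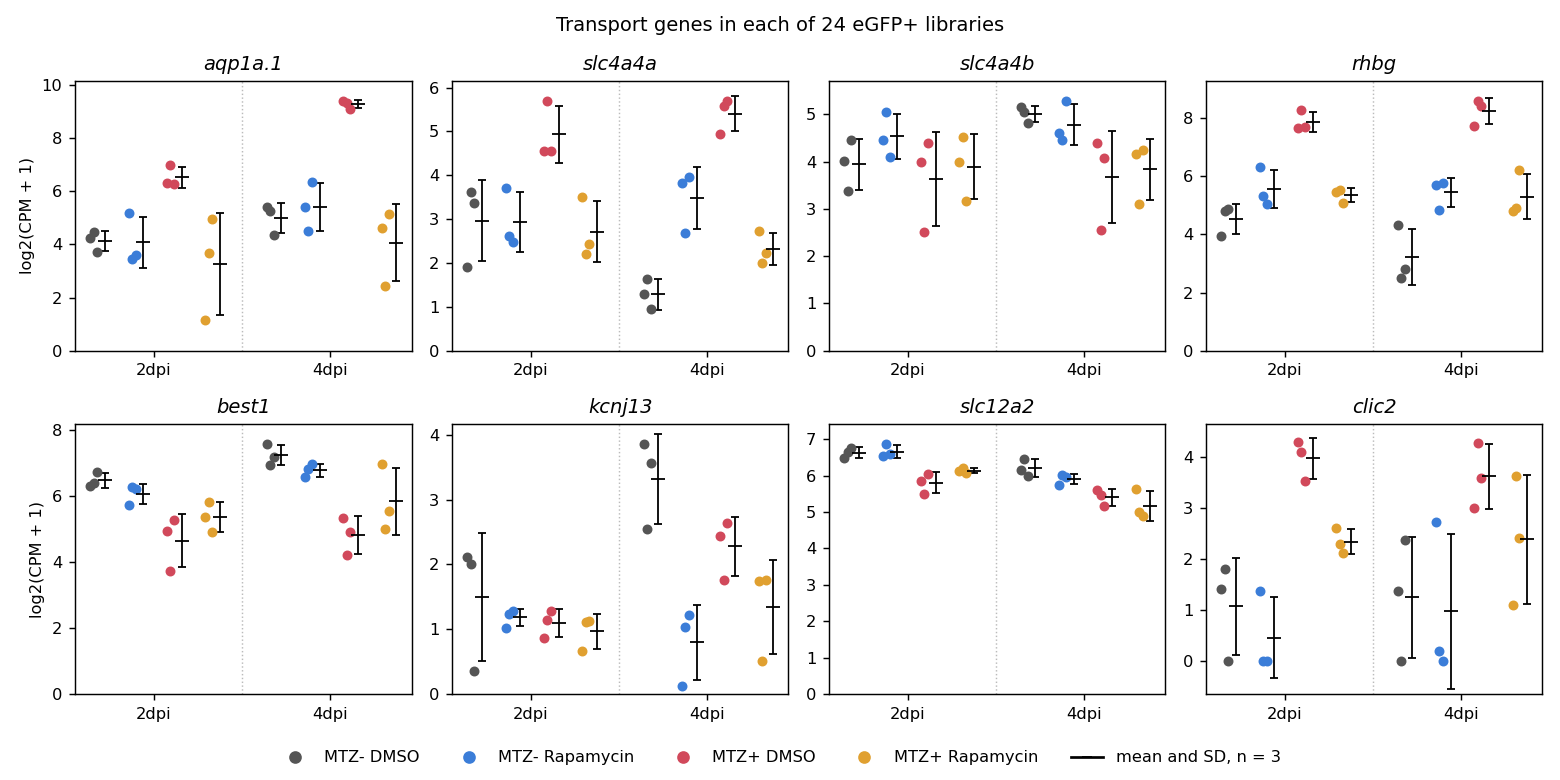
Level of each gene as log2(CPM + 1) in each of the 24 libraries, by group and time point, with the mean and SD of the 3 libraries. The MTZ+ DMSO libraries lie above all other libraries of their time point for aqp1a.1, slc4a4a and rhbg, and below those of MTZ- larvae for best1 and slc12a2.

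slc4a4a (chromosome 5, 45746457 to 45877387, minus strand, GRCz11) encodes an electrogenic sodium bicarbonate cotransporter. At 2dpi it measured 2.74, 11.3 and 9.25 CPM in the MTZ- DMSO libraries and 22.5, 50.6 and 22.4 CPM in those of MTZ+ DMSO. At 4dpi the MTZ- DMSO libraries gave 1.43, 2.12 and 0.918 CPM and the MTZ+ DMSO libraries 29.7, 47.1 and 50.7 CPM. The groups did not overlap at either time point, and the lowest level of all 8 groups was that of intact RPE at 4dpi. With ablation the log2 fold change was 2.05 ± 0.61 (SE, n = 3 per group, adjusted p = 0.0251, edgeR) at 2dpi and 4.91 ± 0.50 (adjusted p = 0.000216) at 4dpi. The call at 2dpi was lost when MTZ- DMSO replicate 1 (adjusted p = 0.081) or replicate 3 (0.0612) or MTZ+ DMSO replicate 2 (0.121) was left out, and the call at 4dpi was kept without any single library.

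slc4a4b (chromosome 21, 5993188 to 6104568, plus strand) is the second zebrafish gene for this cotransporter. At 2dpi its MTZ- DMSO libraries measured 15.0, 9.33 and 20.9 CPM and its MTZ+ DMSO libraries 14.9, 4.70 and 20.03 CPM. These overlapped over nearly their whole range. At 4dpi intact RPE gave 34.7, 32.1 and 27.1 CPM and ablated RPE 19.9, 4.89 and 15.8 CPM, with every ablated library below every intact one. This gave a log2 fold change of -0.16 ± 0.51 at 2dpi (adjusted p = 0.862) and -1.13 ± 0.47 at 4dpi (adjusted p = 0.0914). The 4dpi difference was called lower once a block for replicate was added (-1.34, adjusted p = 0.0315). Per transcript length at 4dpi, slc4a4a had a mean level of 0.353 TPM and slc4a4b of 11.8 TPM in MTZ- DMSO, and in MTZ+ DMSO slc4a4a had 13.0 TPM and slc4a4b 6.41 TPM. slc4a4a was the higher of both in 2 of the 3 MTZ+ DMSO libraries, and in replicate 1 it had 8.28 TPM against 8.86 TPM of slc4a4b. In MTZ+ rapamycin the means were 1.15 TPM of slc4a4a and 6.30 TPM of slc4a4b.

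rhbg (chromosome 16, 29265796 to 29277164, minus strand) encodes an Rh glycoprotein that conducts ammonia or ammonium across epithelial membranes. Intact RPE of DMSO-treated larvae gave 14.2, 26.6 and 27.97 CPM at 2dpi and 19.2, 4.71 and 6.06 CPM at 4dpi. Ablated RPE gave 199.5, 308.7 and 203.6 CPM at 2dpi and 211.2, 382.9 and 337.9 CPM at 4dpi. All ablated libraries lay far above all intact ones. The ratio of the group means was 10.34 at 2dpi and 31.1 at 4dpi. On the log2 scale the fold change was 3.39 ± 0.39 (adjusted p = 6.95e-05, edgeR, n = 3 per group) and 5.04 ± 0.63 (adjusted p = 0.000488), and the latter was 5.92 without MTZ- DMSO 4dpi replicate 1, the highest library of its group. Among the 8 genes rhbg had the smallest adjusted p at 2dpi and the largest log2 fold change at 4dpi. The same MTZ+ DMSO libraries took part in choosing rhbg, so this ranking is not independent of that choice.

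aqp1a.1 (chromosome 2, 2737422 to 2749333, plus strand) encodes a water channel of the aquaporin 1 type. Its MTZ- DMSO libraries measured 17.8, 21.1 and 12.2 CPM at 2dpi and 41.4, 37.2 and 19.6 CPM at 4dpi. The MTZ+ DMSO libraries measured 78.7, 126.1 and 76.5 CPM at 2dpi and 672.4, 644.5 and 550.0 CPM at 4dpi. Ablated and intact libraries did not overlap at either time point. At 2dpi the log2 fold change of 2.48 ± 0.86 did not pass the test (adjusted p = 0.0577, edgeR), and it did by DESeq2 (adjusted p = 0.00513) and with the 6 compared libraries alone (0.00109). At 4dpi it was 4.33 ± 0.70 (adjusted p = 0.00146). With a mean of 828 ± 68.5 TPM (SD, n = 3), aqp1a.1 in MTZ+ DMSO at 4dpi was the most abundant of the 8 genes in any group and ranked 165 among all 25281 genes of that group. These libraries also took part in choosing aqp1a.1.

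best1 (chromosome 25, 3069671 to 3087556, minus strand) encodes bestrophin 1, a calcium-activated chloride channel of the basal membrane of RPE and a classical marker of these cells. At 2dpi it measured 78.0, 83.3 and 105.6 CPM in MTZ- DMSO and 29.6, 12.3 and 37.3 CPM in MTZ+ DMSO. The values at 4dpi were 188.7, 122.3 and 145.5 CPM in MTZ- DMSO and 39.5, 17.6 and 29 CPM in MTZ+ DMSO. Every ablated library was below every intact one at both time points. The log2 fold change was -1.72 ± 0.37 (adjusted p = 0.00432, edgeR) at 2dpi and -2.33 ± 0.47 (adjusted p = 0.00459) at 4dpi. The RPE markers moved the same way, with 8 of 8 called lower at 2dpi (median log2 fold change -1.68) and 3 of 8 at 4dpi (median -1.13). Their part in the lower best1 level was not tested.

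clic2 (chromosome 14, 33882973 to 33892311, plus strand), a member of the chloride intracellular channel family, was unevenly detected in intact RPE. It was at 0 reads in some libraries and above 3 counts in the others. The reads counted on it in MTZ- DMSO libraries were 56, 96 and 0 at 2dpi and 38, 0 and 113 at 4dpi, whereas MTZ+ DMSO libraries held 508, 489 and 265 at 2dpi and 156, 703 and 282 at 4dpi. In CPM the ablated libraries measured 18.7, 16.1 and 10.6 at 2dpi and 7.02, 18.4 and 10.96 at 4dpi, above all MTZ- DMSO libraries, which reached at most 4.15 CPM. Fitted log2 fold changes were 3.45 ± 1.56 at 2dpi (adjusted p = 0.137, edgeR) and 2.73 ± 1.70 at 4dpi (adjusted p = 0.246), so neither passed the test. clic2 overlaps urp1 on the opposite strand, and whether counting used the strand is not stated, so reads of both cannot be told apart.

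slc12a2 (chromosome 10, 16225117 to 16310179, plus strand) encodes the sodium, potassium and chloride cotransporter NKCC1, by which chloride enters epithelial cells. Its group means differed by at most 2.79 times. At 2dpi the MTZ- DMSO libraries measured 88.5, 99.4 and 108.4 CPM and the MTZ+ DMSO libraries 57.2, 44.3 and 65.5 CPM. At 4dpi they measured 70.8, 87.7 and 63.1 CPM and 47.6, 43.0 and 34.6 CPM. The groups did not overlap at either time point. The log2 fold change of -0.80 ± 0.20 at 2dpi (adjusted p = 0.00928) and of -0.74 ± 0.24 at 4dpi (adjusted p = 0.0359) had an adjusted p below 0.05 in edgeR but stayed under the fold limit of a call.

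kcnj13 (chromosome 15, 40217256 to 40267485, minus strand) encodes the inward rectifier potassium channel Kir7.1 of the apical membrane of RPE. Its group means per transcript length lay between 0.182 and 2.09 TPM. At 2dpi its MTZ- DMSO libraries measured 3.33, 3.03 and 0.274 CPM and its MTZ+ DMSO libraries 0.810, 1.22 and 1.44 CPM. At 4dpi these groups measured 13.5, 4.82 and 10.8 CPM and 4.41, 2.38 and 5.21 CPM. Both pairs of groups overlapped, and the log2 fold changes of -0.92 ± 0.86 and -1.20 ± 0.83 did not pass the test (adjusted p = 0.488 and 0.3, edgeR).

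Most listed markers of Müller glia, which use genes of the same families, rose together with slc4a4a, rhbg and aqp1a.1. The most abundant of them, glula, did not, and neither did the sum of the list. Of 6 listed markers, 5 were called higher in MTZ+ DMSO than in MTZ- DMSO at both time points (gfap, rlbp1a, cahz, slc1a2b and hepacama), with a median log2 fold change over the list of 2.25 at 2dpi and 4.997 at 4dpi. Their defining markers glula, gfap and rlbp1a were at 0 in no group. The summed level of the 6 genes ran from 5430 to 10369 CPM in MTZ- DMSO and from 5058 to 7050 CPM in MTZ+ DMSO at 2dpi, and from 9880 to 12527 CPM and from 8175 to 11398 CPM at 4dpi. This sum was mostly glula, which made up at least 74.8% of it in every library and was not called in DMSO-treated larvae at either time point (log2 fold change -0.40 and -0.27). rlbp1a is also known from RPE. The other 4 genes, a set chosen after their values were seen, summed to 41.7, 94.9 and 89.6 CPM in MTZ- DMSO and to 375.8, 611.3 and 429.6 CPM in MTZ+ DMSO at 2dpi. At 4dpi they summed to 45.3, 38.5 and 33.8 CPM in MTZ- DMSO and to 764.9, 1383 and 1024 CPM in MTZ+ DMSO. Photoreceptor markers were called higher for 2 of 8 genes and markers of other retinal neurons for 3 of 7 at 4dpi, and 0 of either list at 2dpi. Leukocyte markers were called higher for 1 of 7 genes at 2dpi and 1 of 8 at 4dpi. Whether glial, neuronal or leukocyte RNA within the eGFP+ sort contributed to the higher transport genes was not tested.

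**Figure D2:**
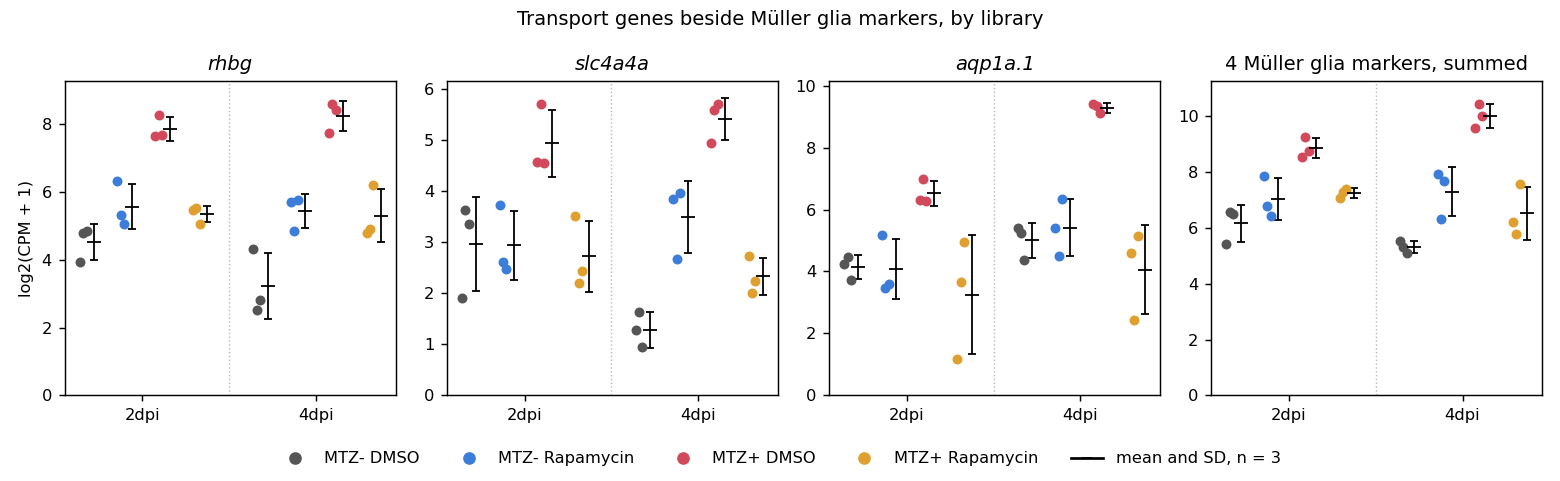
Level as log2(CPM + 1) of rhbg, slc4a4a and aqp1a.1 and of the sum of 4 Müller glia markers (gfap, cahz, slc1a2b, hepacama) in each library, with the mean and SD of the 3 libraries. In all 4 panels the MTZ+ DMSO libraries are the highest of their time point, and the marker sum reaches 765 to 1383 CPM in MTZ+ DMSO at 4dpi against 33.8 to 45.3 CPM in MTZ- DMSO. The 4 markers were chosen after their values were seen, and sums of the full list of 6 overlapped between MTZ+ DMSO and MTZ- DMSO.

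The ablation difference did not pass the test as a change between time points for any of the 8 genes. Of all tested genes, 1.53% had a difference that was called larger at 4dpi than at 2dpi and 1.2% one that was called smaller, at an adjusted p under 0.05 in 1 edgeR fit over all 24 libraries. At an unadjusted p under 0.05 there were 2 of the 8, and 3498 of the 18939 tested genes. The difference grew by 2.80 ± 0.78 on the log2 scale for slc4a4a (adjusted p = 0.0546), by 1.59 ± 0.68 for rhbg (adjusted p = 0.21) and by 1.79 ± 1.09 for aqp1a.1 (adjusted p = 0.409). DESeq2 called slc4a4a (adjusted p = 0.0106), and leaving out MTZ- DMSO 2dpi replicate 1 (0.0331) or MTZ+ DMSO 2dpi replicate 2 (0.046) brought it below 0.05 in edgeR. The MTZ+ DMSO libraries in this test also took part in choosing slc4a4a, rhbg, aqp1a.1 and clic2. Its values and calls for these genes are therefore not independent of that choice. slc4a4a was lower at 4dpi than at 2dpi in MTZ- DMSO (log2 fold change -2.38 ± 0.58, adjusted p = 0.0116). In this comparison 4.41% of all tested genes were called lower and 2.58% higher. Of the 8, 0 were called higher by edgeR and 1 by DESeq2 (kcnj13, adjusted p = 0.0383), which called 747 of all 24149 genes higher. An unadjusted p under 0.05 in either direction was found for 3 of the 8 and for 4592 of the 18939 tested genes. The slc4a4a call was lost without MTZ- DMSO 2dpi replicate 2 (adjusted p = 0.0642) and without 4dpi replicate 1 (0.0562) or replicate 3 (0.0533). Without 4dpi replicate 1, rhbg was called lower with age (-2.09, adjusted p = 0.0172). In the same comparison kcnj13, best1 and slc4a4b were higher in every library of 4dpi than in every library of 2dpi, with log2 fold changes of 2.13 ± 0.85, 0.77 ± 0.42 and 1.05 ± 0.52 that did not pass the test (adjusted p = 0.122, 0.268 and 0.218). slc12a2 was lower in every library of 4dpi (-0.42 ± 0.21, adjusted p = 0.222). How many of all tested genes separated in this way between the ages was not counted. The libraries of both ages carry different dates in their raw-file names, so age and date cannot be told apart. Photoreceptor markers summed to 1034 to 5737 CPM in MTZ- DMSO at 2dpi and to 86.7 to 497 CPM at 4dpi. Other retinal neurons summed to 41.0 to 240 and 7.15 to 19.2 CPM, and epidermis to 113 to 157 and 857 to 1293 CPM. The Müller glia marker hepacama was called lower at 4dpi (-9.32, adjusted p = 0.00064, edgeR), and glula, gfap, rlbp1a, cahz and slc1a2b were not called. The part of other cells in the slc4a4a difference was not tested.

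Rapamycin in intact RPE went with a higher level of slc4a4a at 4dpi. Between MTZ- rapamycin and MTZ- DMSO, 0 of the 8 genes were called at 2dpi by edgeR or DESeq2. Of all tested genes edgeR called 0.0855% higher and 0% lower, and DESeq2 called 128 higher and 101 lower of 23507. An unadjusted p under 0.05 was found for 1 of the 8 and for 1323 of the 17536 tested genes. At 4dpi 1 of the 8 was called higher, where 1.84% of all tested genes were, and 0 lower, where 0.257% were. slc4a4a measured 13.3, 5.38 and 14.5 CPM in MTZ- rapamycin at 4dpi, all above the 0.918 to 2.12 CPM of MTZ- DMSO given above. The log2 fold change was 2.92 ± 0.46 (adjusted p = 0.00908, edgeR, n = 3 per group), and it stayed called without any single library. At 2dpi the libraries measured 12.1, 5.12 and 4.57 CPM, overlapping those of MTZ- DMSO, with a log2 fold change of -0.08 and a 95% interval from -1.35 to 1.19.

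rhbg was higher with rapamycin in every intact library at both time points. It measured 78.6, 38.9 and 32.2 CPM in MTZ- rapamycin at 2dpi, above the 14.2 to 27.97 CPM of MTZ- DMSO, and 50.8, 27.9 and 53.8 CPM at 4dpi, above 4.71 to 19.2 CPM. The log2 fold change was 1.14 ± 0.36 (unadjusted p = 0.00742, adjusted p = 0.357, edgeR) and 2.19 ± 0.56 (adjusted p = 0.0637), so neither passed. DESeq2 called it at 4dpi (adjusted p = 0.00237), as did edgeR without MTZ- DMSO 4dpi replicate 1 (0.0254). kcnj13 went the other way at 4dpi, with 0.092, 1.05 and 1.33 CPM in MTZ- rapamycin, all below the 4.82 to 13.5 CPM of MTZ- DMSO. Its log2 fold change was -3.55 ± 0.91 (adjusted p = 0.0654, edgeR), and DESeq2 called it lower (adjusted p = 0.000548). aqp1a.1 measured 41.6, 21.7 and 79.5 CPM in MTZ- rapamycin at 4dpi, overlapping MTZ- DMSO, with a log2 fold change of 0.57 (95% interval -0.77 to 1.91). best1, slc12a2, slc4a4b and clic2 had log2 fold changes between -0.45 and 0.08 at 4dpi, and that of clic2 turned to -4.70 without MTZ- rapamycin replicate 1, the library that holds 182 of its reads against 4 and 0 in the others.

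Other markers moved in this comparison too. At 4dpi, 2 of 6 Müller glia markers were called higher with rapamycin in intact RPE (slc1a2b and hepacama, the latter at 0 in MTZ- DMSO), with a median log2 fold change of 2.29, and so were 2 of 8 photoreceptor markers (median 3.81). Markers of other retinal neurons had 0 of 7 called and a median of 3.60, and their sum ran from 72.4 to 224.5 CPM in MTZ- rapamycin against 7.15 to 19.2 CPM in MTZ- DMSO, without overlap. Of 7 epidermis markers 1 was called lower (median -4.77), with sums of 258 to 556 CPM against 857 to 1293 CPM. The Müller glia list of 6 summed to 8465 to 8847 CPM in MTZ- rapamycin at 4dpi, below the 9880 to 12527 CPM of MTZ- DMSO. At 2dpi it summed to 8232 to 10500 CPM in MTZ- rapamycin, overlapping the 5430 to 10369 CPM of MTZ- DMSO. The 4 Müller glia markers other than glula and rlbp1a summed to 242.2, 78.6 and 205.0 CPM in MTZ- rapamycin at 4dpi, all above MTZ- DMSO. The 8 RPE markers had a median log2 fold change of -0.08 with none called. The part of retinal RNA in the higher slc4a4a level was not tested.

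**Figure D3:**
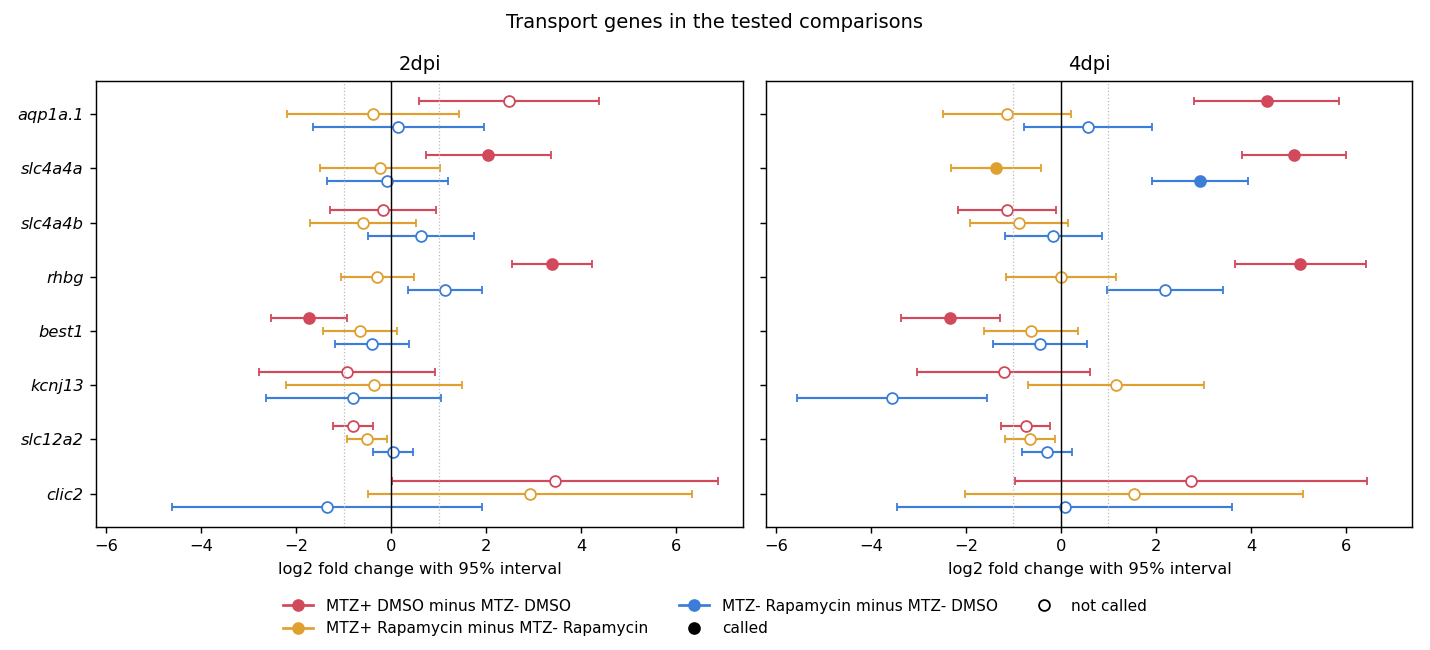
Log2 fold change of each gene with its 95% interval in the 3 tested comparisons of 2dpi and 4dpi, with called genes as filled points and the limits of 1 and -1 dotted. With ablation in DMSO the called genes are slc4a4a, rhbg and, at 4dpi, aqp1a.1 above 0 and best1 below 0, and with rapamycin in MTZ- larvae the interval of slc4a4a at 4dpi runs from 1.91 to 3.94.

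In rapamycin-treated larvae, MTZ+ was compared with MTZ-. This uses the MTZ+ rapamycin libraries whose low levels chose aqp1a.1, slc4a4a, rhbg and clic2, so a missing rise or a lower call of these 4 genes is not independent of their choice. Between MTZ+ rapamycin and MTZ- rapamycin at 2dpi, 0 of the 8 were called by edgeR or DESeq2. Of all tested genes edgeR called 8.68% higher and 5.73% lower, and DESeq2 called 1727 higher and 1418 lower of 23507. An unadjusted p under 0.05 was found for 1 of the 8 and for 5266 of the 17536 tested genes. Without MTZ- rapamycin 2dpi replicate 1, the sole library of its group with reads on clic2, clic2 was called higher (adjusted p = 0.011). At 4dpi 0 of the 8 were called higher, where 8.63% were, and slc4a4a was called lower, where 6.94% were. slc4a4a measured 5.64, 3.03 and 3.71 CPM in MTZ+ rapamycin, against 13.3, 5.38 and 14.5 CPM in MTZ- rapamycin, and the groups overlapped in 1 library of each. Its log2 fold change of -1.36 ± 0.43 (adjusted p = 0.0465, edgeR) was near the limit, and the call was lost with the replicate block (adjusted p = 0.0708), without the filter on low counts (0.0519), with the compared libraries alone (0.0933) and without both MTZ+ 4dpi libraries numbered 2 (0.18), whose raw-file names carry their letters in reverse order. It was also lost without MTZ- rapamycin replicate 1 (0.103) or 3 (0.145) or MTZ+ rapamycin replicate 2 (0.15) or 3 (0.138). Without MTZ+ rapamycin replicate 1, best1 was called lower as well (-1.46, adjusted p = 0.00989). slc12a2 was lower in every ablated library at both times, with 69.1, 72.9 and 66.8 CPM in MTZ+ rapamycin against 91.2, 115.5 and 95.2 CPM in MTZ- rapamycin at 2dpi, and 48.9, 30.8 and 28.6 CPM against 52.5, 63.3 and 61.3 CPM at 4dpi. Its log2 fold change was -0.51 ± 0.20 (adjusted p = 0.0968) and -0.65 ± 0.24 (adjusted p = 0.0781). best1 measured 39.96, 55.9 and 29.1 CPM in MTZ+ rapamycin at 2dpi and 124.1, 31.0 and 46.0 CPM at 4dpi. It overlapped MTZ- rapamycin at both times, and the log2 fold change was -0.65 (95% interval -1.43 to 0.13) and -0.63 (-1.62 to 0.36). Of the 6 Müller glia markers 0 were called higher and glula was called lower in this comparison at both times (log2 fold change -2.25 and -2.62, adjusted p = 0.000302 and 0.00428). Whether the ablation difference itself changed with rapamycin was not tested, since this would use the comparison that chose 4 of the genes.

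Rapamycin in ablated larvae is given as a description. The MTZ+ rapamycin libraries measured 1.24, 11.6 and 29.98 CPM of aqp1a.1 at 2dpi and 23.3, 4.37 and 34.7 CPM at 4dpi, all below the MTZ+ DMSO libraries above, and the mean was 6.57 times lower at 2dpi and 29.9 times lower at 4dpi. The log2 difference of aqp1a.1 at 2dpi went from -2.70 to -3.83 without MTZ+ rapamycin replicate 3. slc4a4a measured 10.4, 3.60 and 4.43 CPM at 2dpi, 5.18 times lower in the mean, and was 10.29 times lower at 4dpi. Its log2 difference at 2dpi went from -2.36 to -2.97 without MTZ+ rapamycin replicate 1. rhbg measured 43.2, 44.9 and 32.5 CPM at 2dpi and 26.7, 28.9 and 72.8 CPM at 4dpi, 5.90 and 7.26 times lower in the mean, and its log2 difference at 4dpi went from -2.85 to -3.46 without MTZ+ rapamycin replicate 3. For these 3 genes every rapamycin library was below every DMSO library at both times. clic2 held 177, 149 and 76 reads at 2dpi and 36, 324 and 175 at 4dpi, below all DMSO libraries at 2dpi and overlapping them at 4dpi. Its log2 difference at 4dpi was -1.11, and went to -2.13 without MTZ+ rapamycin replicate 2 and to -0.63 without replicate 1. best1 had a log2 difference of 0.67 at 2dpi and 1.25 at 4dpi, slc4a4b of 0.20 and 0.08, slc12a2 of 0.34 and -0.20, and kcnj13 of -0.23 and -1.19. The rapamycin and DMSO libraries of best1, slc4a4b and kcnj13 overlapped at both times. The best1 value at 4dpi was 0.42 without MTZ+ rapamycin replicate 1, and that of kcnj13 at 2dpi was 0.039 without the 2dpi replicate 1 of the same group. Leaving out 1 library in turn gave slc4a4b values from -0.22 to 0.64 at 2dpi and from -0.32 to 0.49 at 4dpi. The 4 Müller glia markers summed to 132.4, 157.1 and 167.9 CPM in MTZ+ rapamycin at 2dpi and to 72.5, 54.6 and 191.2 CPM at 4dpi, below every MTZ+ DMSO library. The list of 6 summed to 1733 to 2730 CPM and to 472 to 1989 CPM. The 8 RPE markers summed to 38511 to 67889 CPM in MTZ+ rapamycin at 2dpi, above the 16029 to 31555 CPM of MTZ+ DMSO. At 4dpi they overlapped, with 18619 to 79951 and 25108 to 46079 CPM. Epidermis markers summed to 290 to 718 CPM against 69.5 to 130 CPM at 2dpi, and overlapped at 4dpi. The part of these differences in the levels of the transport genes was not tested.

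The order of the group means differed between the genes. aqp1a.1 had its highest mean in MTZ+ DMSO at 4dpi and its next in MTZ+ DMSO at 2dpi, and the ranges of these groups did not overlap. rhbg and slc4a4a had their highest means in the same groups, but their libraries overlapped between 2dpi and 4dpi. The MTZ+ DMSO libraries took part in choosing aqp1a.1, rhbg and slc4a4a, so these high places are not independent of that choice. Among the other 6 groups of aqp1a.1 the means ran from 14.3 to 47.6 CPM, and neighbours in this order overlapped. best1 was highest in MTZ- DMSO at 4dpi (152 ± 33.7 CPM, SD, n = 3) and lowest in MTZ+ DMSO at 2dpi (26.4 ± 12.8 CPM). kcnj13 in MTZ- DMSO at 4dpi (9.71 ± 4.43 CPM) was the highest of its 8 groups, followed by MTZ+ DMSO at 4dpi, whose range overlapped it.

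The genes whose log2(CPM + 1) followed each gene most closely over the 24 libraries, among genes with a mean of at least 1 TPM, are given as a description, since the 24 libraries fall into groups. Those nearest to rhbg were zgc:165604 and atp1b4 (Pearson r = 0.961 and 0.959). slc4a4a was followed by map2 and slc1a2b (0.924 and 0.918), the second of which is a glutamate transporter and one of the Müller glia markers. aqp1a.1 had LO018231.1 and si:dkey-246e1.3 (0.880 and 0.879) and clic2 had ier5l and zgc:158343 (0.907 and 0.881). Nearest to best1 were si:ch211-236l14.4 and valopb (0.947 and 0.943), to slc4a4b slc4a2b and slc7a1a (both 0.833), the first of them an anion exchanger gene, to slc12a2 slc16a13 and si:ch211-117c9.5 (0.887 and 0.871), and to kcnj13 tnk1 and prnpb (0.804 and 0.759).

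Of 143 other genes listed for the same transport families, 125 were in the tables. After ablation in DMSO, 9 of 74 tested were called higher and 8 lower at 2dpi (12.2% and 10.8%), and 11 of 72 were called higher and 8 lower at 4dpi (15.3% and 11.1%), shares near those of all tested genes given above. Carbonic anhydrases, which turn carbon dioxide into bicarbonate, held 2 higher genes and 1 lower one among 12 tested at both times (16.7% and 8.33%). ca14, a membrane-bound form, rose from 19.02 to 111 CPM in the mean at 2dpi (log2 fold change 2.56, adjusted p = 0.00245, edgeR) and from 5.13 to 151 CPM at 4dpi (4.97, adjusted p = 0.0012). cahz, a cytosolic form that is also in the Müller glia list, rose by a log2 fold change of 2.64 (adjusted p = 0.00339) and 5.51 (adjusted p = 0.00136). ca9, another membrane-bound form, fell from 78.2 to 8.01 CPM at 2dpi (-3.26, adjusted p = 3.68e-05) and from 138 to 10.45 CPM at 4dpi (-3.65, adjusted p = 0.0158).

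Among aquaporins, aqp11 rose at 2dpi (log2 fold change 1.45, adjusted p = 0.00272), and aqp4, the main water channel of glia, was called higher at both times and had a log2 fold change of 4.46 at 4dpi (adjusted p = 0.000769). Of the chloride channel families, lrrc8aa, a subunit of the volume-regulated anion channel, rose at 2dpi (1.57, adjusted p = 0.0041). The anoctamin gene ano10a fell at 2dpi (-1.74, adjusted p = 0.000169) and 4dpi (-1.35, adjusted p = 0.00278), and clic6 was lower at both times, with -1.76 at 4dpi (adjusted p = 0.0252). The anion transporter genes slc26a2 and slc26a5 fell at 2dpi (-2.54 and -1.40, adjusted p = 0.000378 and 0.001) and at 4dpi (-1.62 and -1.25, adjusted p = 0.0362 and 0.0268), and the anion exchanger gene slc4a2b fell at 4dpi (-1.70, adjusted p = 0.00487). kcnj10a, for the potassium channel Kir4.1 of glia, was called higher at 4dpi with ablation (9.78 against 0.0122 CPM in the mean, the latter under the floor of 3 counts, adjusted p = 0.00077), and overlaps another gene.

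**Figure D4:**
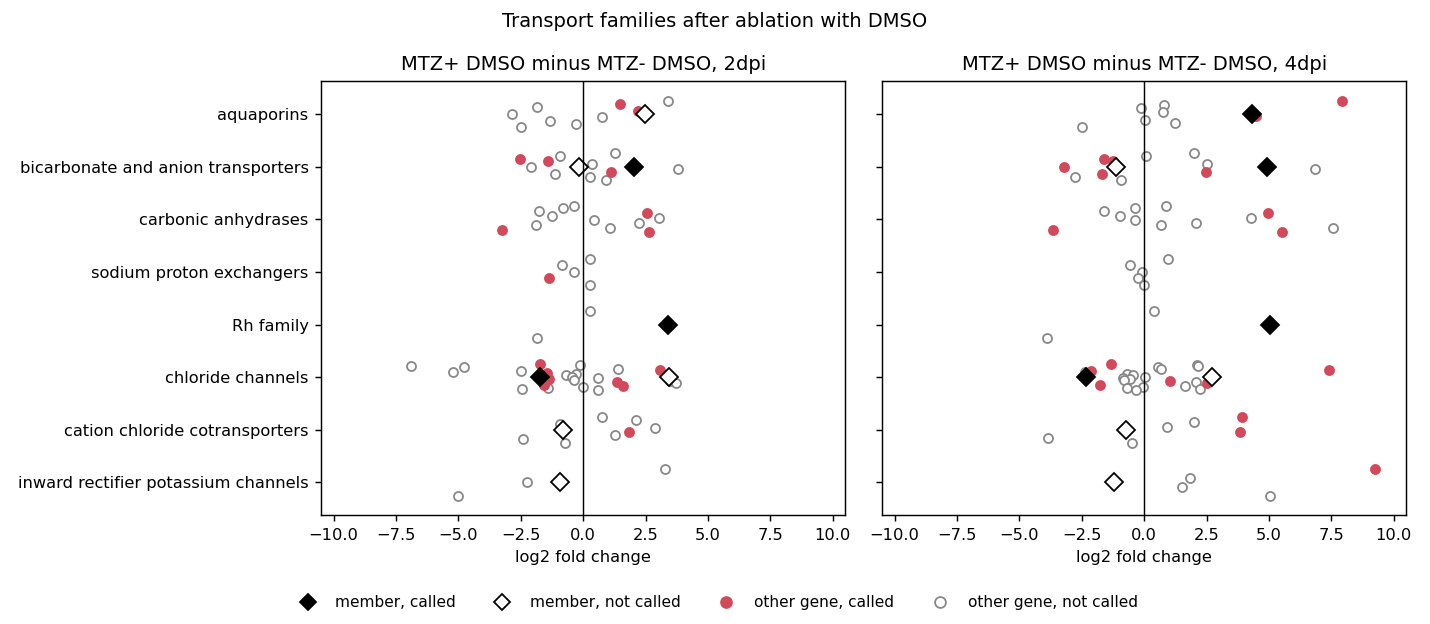
Log2 fold change with ablation in DMSO-treated larvae at 2dpi and 4dpi for the tested genes of 8 transport families, with the 8 members as diamonds and called genes filled. Most families hold genes on both sides of 0, and 9 of 74 other genes were called higher and 8 lower at 2dpi.

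With rapamycin in intact RPE, 0 of the other family genes were called at 2dpi by edgeR and 1 at 4dpi, kcnj10a (1.33 against 0.0122 CPM, adjusted p = 0.0199). In rapamycin-treated larvae, ablation was followed by 1 higher and 10 lower of 74 tested family genes at 2dpi (1.35% and 13.5%, against 8.68% and 5.73% of all tested genes) and 2 higher and 5 lower of 72 at 4dpi (2.78% and 6.94%, against 8.63% and 6.94%). slc12a7a, a potassium chloride cotransporter gene, was the higher one at 2dpi (log2 fold change 2.30, adjusted p = 0.00258), and ca9, ano10a, slc26a2 and slc9a7 fell (-1.73, -1.23, -2.42 and -1.27, adjusted p = 0.00228, 0.0022, 0.000698 and 0.00411). At 4dpi clic4 and slc12a7a were the higher genes (2.29 and 1.59, adjusted p = 0.00488 and 0.0244). Of those that fell, slc26a2, slc4a10b, ca10a and slc9a6a had log2 fold changes of -2.30, -4.36, -1.60 and -1.03 (adjusted p = 0.0122, 0.0246, 0.0313 and 0.0131), and slc9a6a overlaps another gene. Across ages in MTZ- DMSO, ano5a was called higher at 4dpi (2.07, adjusted p = 0.0181), and clic1, slc4a2a and ca8 were called lower. clic1 fell by 1.48 on the log2 scale (adjusted p = 0.000197), slc4a2a by 1.91 (adjusted p = 0.0225), and ca8 from a mean of 1.35 CPM to 0 counts in all 3 libraries (adjusted p = 0.0275). For the change of the ablation effect from 2dpi to 4dpi in DMSO, 1 of 85 tested family genes was called (1.18%, against 1.53% of all tested genes). This was clic1, with a log2 change of 1.37 (adjusted p = 0.0175, edgeR).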

How the data were processed

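RNA of eGFP+ cells was measured in 24 libraries, grouped by the deposited sample labels (0 sample columns unmapped). After trimming, the authors mapped reads with CLC Genomics Workbench (version not given in the sources used here) on GRCz11 and deposited the count of reads per gene without normalization, and TPM values, which scale counts by transcript length and to a common sum. The deposited RPKM and CPM-named columns and the authors' own comparison columns (fold changes, p-values) were not used. How multi-mapped reads and strand were counted is not stated.

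Counts were fitted with edgeR 4.0.16 (R 4.3.3, limma 3.58.1) by glmQLFit (robust) and glmQLFTest after filterByExpr at a minimum count of 10 and TMM scaling, with the 12 libraries of a time point, or all 24 for age and for the change of the ablation effect. p-values were adjusted by Benjamini-Hochberg over all tested genes. edgeR's biological coefficient of variation came to 0.635 for 2dpi and 0.619 for 4dpi. The standard error is the log2 fold change over the root of F. With 3 libraries against 3 an exact test of 1 value cannot go below p = 0.1, so single genes were tested in these fits alone. The standard errors given include the spread between libraries, as estimated in the fit. Reads carry no molecular identifiers.

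The members and lists were chosen with earlier results of these data known. Named genes are the 8 members, the 2 most alike genes of each, up to 4 other called family genes per comparison and direction with the smallest adjusted p, and markers. Within a time point, libraries with the same number carry 1 date in their raw-file names, whose meaning is not stated. Their deviations from group means correlated by 0.155 in the mean at 2dpi and 0.0634 at 4dpi (across genes). Alternatives were DESeq2 1.42.0, RLE scaling, no filter on low counts, a replicate block, the compared libraries alone, a CPM limit in place of TPM, and leaving out libraries. The scripts were tested on simulated data.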

Additional observations from a re-analysis of the deposited data

Results flagged for a closer look

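Rapamycin went with opposite directions in intact and ablated RPE for rhbg at both time points and for slc4a4a at 4dpi. For rhbg every MTZ- rapamycin library was above every MTZ- DMSO library and every MTZ+ rapamycin library was below every MTZ+ DMSO library, at both time points. The log2 fold change of MTZ- larvae exceeded that of MTZ+ larvae by 3.68 at 2dpi (1.14 against -2.54) and by 5.04 at 4dpi (2.19 against -2.85). slc4a4a showed the same at 4dpi, with 2.92 against -3.34, a gap of 6.27. In MTZ- larvae edgeR called rhbg at neither time (adjusted p = 0.357 and 0.0637). Its log2 fold change there at 2dpi was 0.64 without MTZ- rapamycin replicate 1. That of slc4a4a in MTZ- larvae was -0.08 at 2dpi, with overlapping libraries. These differences between intact and ablated larvae were not tested, because the MTZ+ values chose both genes. The 4 Müller glia markers other than glula and rlbp1a, a set chosen after their values were seen, also summed higher with rapamycin in all MTZ- libraries at 4dpi and lower in all MTZ+ libraries. The full list of 6 summed lower with rapamycin in MTZ- larvae at 4dpi (8465 to 8847 CPM against 9880 to 12527 CPM). That sum was mostly glula, which was not called (log2 fold change -0.39, adjusted p = 0.727, edgeR). Log2 fold changes of gfap, rlbp1a, cahz, slc1a2b and hepacama there ran from 1.47 to 9.38, with slc1a2b and hepacama called higher. The part of these markers was not tested.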

How the results depend on the processing

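kcnj13 and clic2 had the lowest read counts among the members, with 3 to 320 and 0 to 703 reads per library. The part of sequencing depth in these low counts was not tested. The calls of rhbg and best1 with ablation in DMSO at both times, and of slc4a4a and aqp1a.1 at 4dpi, were kept in every alternative run. These runs use the MTZ+ DMSO libraries that took part in choosing rhbg, slc4a4a and aqp1a.1. The kept calls of these genes, unlike those of best1, are therefore not independent of that choice. With the replicate block, members called lower with ablation in DMSO at 4dpi rose from 1 to 2, and the 1 called lower with ablation in rapamycin at 4dpi went to 0, as it also did without the filter on low counts, with the compared libraries alone and without both MTZ+ 4dpi libraries numbered 2. Of all 17515 tested genes, the block run called 1622 and 1311 lower in these comparisons. Ablation in rapamycin at 4dpi had 1116 of 23442 genes called lower without the filter. It had 825 of 15726 with the compared libraries alone and 699 of 17843 without both libraries numbered 2. The block changed no other call, and could not be fitted for age, since dates lie within time points. DESeq2 called 2 genes higher and 1 lower with rapamycin in MTZ- larvae at 4dpi, 1 higher with age, and 1 with a larger ablation effect at 4dpi. Among all genes, DESeq2 called 884 higher and 199 lower of 23442 with rapamycin, where edgeR called 322 and 45 of 17515. With age DESeq2 called 747 of 24149 higher, and edgeR 489 of 18939. A larger ablation effect was called for 939 of 24149 by DESeq2 and for 289 of 18939 by edgeR. With ablation in DMSO at 2dpi, aqp1a.1 was also called higher by DESeq2 (adjusted p = 0.00513) and by edgeR with the compared libraries alone (0.00109). Leaving out 1 library gave 1 to 2 called higher with ablation in DMSO at 2dpi, 0 to 1 higher with ablation in rapamycin at 2dpi, 1 to 2 higher with rapamycin in MTZ- larvae at 4dpi, 0 to 2 lower with ablation in rapamycin at 4dpi, 0 to 1 lower with age and 0 to 1 with a larger effect at 4dpi. In the same order, the counts over all genes were 1571 to 1727, 1184 to 1550 and 142 to 381. For the last comparisons they were 606 to 1692, 485 to 848 and 106 to 278. These runs tested 18250 to 19729 genes. The causes were not tested.

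Values that changed sign were never called under either sign. For ablation in rapamycin at 4dpi, rhbg was -0.048 by DESeq2, -0.048 by RLE scaling and -0.0037 with the compared libraries alone. clic2 was -0.26 with the block for rapamycin in MTZ- larvae at 4dpi, and the change of the slc12a2 ablation effect was -0.0035 with the block and -0.024 without both MTZ+ 4dpi libraries numbered 2. With 1 library left out, log2 fold changes ran from -0.65 to 0.21 for slc4a4b (ablation in DMSO, 2dpi). For rapamycin in MTZ- larvae at 2dpi they ran from -0.69 to 0.46 for aqp1a.1, from -0.67 to 0.29 for slc4a4a and from -0.067 to 0.10 for slc12a2, and at 4dpi from -0.44 to 0.0054 for slc4a4b and from -4.70 to 1.36 for clic2. For ablation in rapamycin they ran at 2dpi from -1.51 to 0.47 for aqp1a.1, from -0.82 to 0.36 for slc4a4a and from -0.53 to 0.21 for rhbg, and at 4dpi from -0.61 to 0.24 for rhbg. clic2 with age ran from -0.81 to 1.21. For the change of the ablation effect the range was -0.70 to 0.18 for kcnj13, -0.15 to 0.15 for slc12a2 and -1.53 to 0.50 for clic2. Of the remaining values, 478 of those with 1 library left out and 471 of the others were counted as unchanged. In the tested comparisons this meant the same sign and the same call. For rapamycin in ablated larvae, which was not tested, it meant a shift smaller than the larger group SD of log2(CPM + 1) without TMM factors. A change of sign was not counted there.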
